A study of Mus musculus with 2 samples.

Results

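Aquaporins are membrane channels through which water, and for some members glycerol and other small solutes, crosses the lipid bilayer along its osmotic gradient. In the uterus they are known from the endothelium of blood vessels, from the luminal and glandular epithelium and from the myometrium, where they serve the shift of water between tissue, vessels and lumen in the days around implantation. Of the 8 aquaporin genes looked up by gene symbol (Aqp1, Aqp3, Aqp4, Aqp5, Aqp7, Aqp8, Aqp9 and Aqp11), 6 had a row in the deposited table of 14678 genes. Aqp3 and Aqp7, both aquaglyceroporins, were not analysed here.

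The uteri came from mice with the genotype VEGFtetO/tetO/beta-AKtg/wt at gestation day 2.5, the pre-implantation stage. Both groups carried tet operator sequences in the promoter of VEGF and the tetR-Krab repressor, expressed from a beta-actin promoter in all tissues, so that neither group was free of transgenes. The line was bred on doxycycline chow, which lifts the repressor and keeps VEGF normal, and the Dox+ mice stayed on it. From their Dox− littermates doxycycline was withdrawn at a young age, weeks before the uteri were taken. These mice then ate regular chow, under which VEGF is repressed. Doxycycline itself and the level of VEGF therefore cannot be told apart, and repression was not limited to the uterus. For each group the RNA of 3 uteri was pooled and sequenced as 1 library by digital gene expression (DGE) tag profiling, in which a gene's copy number is the count of its sequence tags.

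Each condition was 1 library, so no difference could be checked against replicates, and all intervals cover counting error only. Levels are given as TPM, the copies per 1000000 clean tags of the library, without a correction for transcript length. The copy numbers and TPM values gave library totals of 5985925 clean tags in Dox+ and 5844314 in Dox−, so that 1 tag was worth 0.167 and 0.171 TPM. Vegfa, the repressed gene, had 247 copies in Dox+ and 125 in Dox−, 1.93-fold lower (95% interval 1.55 to 2.41). All of 10 genes listed as markers of the uterus had a row, led by Hoxa10, Hoxa11 and Pgr, although Wnt4 had 0 copies in Dox+ and 18 in Dox−. Their levels were not alike in the libraries. By the rule given below, 8 were compared, of which 4 were called higher and 3 lower in Dox−. The RNA was of whole uteri, so that fewer cells of a type and less RNA per cell cannot be told apart.

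The aquaporin profile differed between the libraries in its level and in its makeup. Aqp1 and Aqp11 were lower in Dox−, Aqp5 was higher, and Aqp4, Aqp8 and Aqp9 had too few tags for a comparison of the same precision. Genes with at least 200 combined copies were compared with the Audic-Claverie test on the tag counts and called where they differed 1.5-fold or more with a false discovery rate (FDR) under 0.05. The test compares these libraries, not the conditions. Aqp1 and Aqp5 were the 2 aquaporins that reached 200 combined copies, and both were called, Aqp1 lower and Aqp5 higher. Aqp5, with 36 copies in Dox+, reached 200 only through its copies in Dox−, so that its call and its place among the genes compared depend on the difference itself. Among all 6547 genes compared, 14.7% were called lower and 15.2% higher, 29.9% in all, so that a call alone sets neither gene apart.

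**Figure D1:**
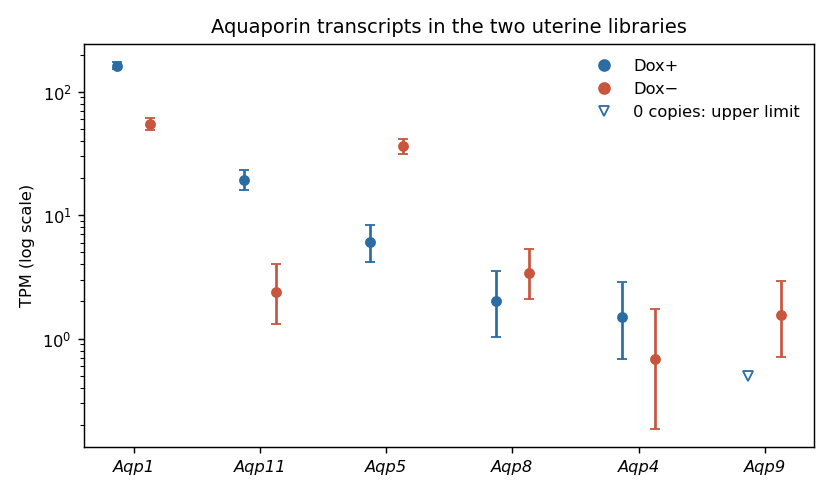
TPM of each aquaporin (log scale) in the Dox+ library (blue) and the Dox− library (red), ordered by the level in Dox+. Bars are exact 95% Poisson intervals. The open triangle of Aqp9, at 0 copies in Dox+, marks a limit set at 3 copies, 0.501 TPM, and not an exact one. The intervals of Aqp1, Aqp11 and Aqp5 lie apart between the libraries, and those of Aqp8 and Aqp4 overlap.

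Aqp1, the water channel of vascular endothelium and red blood cells, was the aquaporin with the most tags in both libraries. It had 974 copies in Dox+ and 320 in Dox−. These were 162.7 TPM (95% Poisson interval 152.7 to 173.3) and 54.8 TPM (48.9 to 61.1), which do not overlap. Aqp1 was thus 2.97-fold lower in Dox− (2.62 to 3.38), a log2 ratio of -1.57. Of the 6547 genes compared, 121 (1.85%, Aqp1 included) had a log2 ratio at or below this value, and 5.62% were called lower at a fold change of at least 2. Aqp1 lies on chromosome 6, 55286426 to 55298549, plus strand, of the NCBIM37 assembly (mm9).

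Aqp11, an unorthodox aquaporin of intracellular membranes such as the endoplasmic reticulum, showed the widest gap of the members with a tag in both libraries. It had 116 copies in Dox+ and 14 in Dox−, or 19.4 TPM (16.01 to 23.2) and 2.40 TPM (1.31 to 4.02). The level in Dox− was 8.09-fold lower (4.63 to 15.3), a log2 ratio of -3.02. Its 130 combined copies fall short of the 200 required, so that it was not among the genes called. At a minimum of 100 combined copies it was called lower, and there 15.4% of 8856 genes were called lower and 0.768% were lower by a fold change of at least 5. At this minimum 35 genes, Aqp11 included, had a log2 ratio at or below -3.02. Aqp11 reached 100 only through its copies in Dox+, so that this call and this place, too, depend on the difference itself. Aqp11 lies on chromosome 7, 104874889 to 104886757, minus strand.

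Aqp5, the water channel of the apical membrane of gland cells, went the other way. It had 36 copies in Dox+ and 212 in Dox−, or 6.01 TPM (4.21 to 8.33) and 36.3 TPM (31.6 to 41.5). The rise was 6.03-fold (4.22 to 8.84), a log2 ratio of 2.59. Of the genes compared, 26 (0.397%, Aqp5 included) rose at least as far, and 0.642% were called higher at a fold change of at least 5. Aqp5 lies on chromosome 15, 99421280 to 99425260, plus strand. With 2 libraries a pattern is no more than a ratio. The genes with the ratio nearest to that of Aqp5 were Elf3, an epithelial transcription factor (185 and 1083 copies), Rnf187 (291 and 1690) and Alpl, the tissue-nonspecific alkaline phosphatase (47 and 282).

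The 3 other aquaporins were near the limit of detection. Aqp8, a channel for water and ammonia, had 12 copies in Dox+ and 20 in Dox−, or 2.005 and 3.42 TPM, and the interval of its fold change reached from 0.795 to 3.83. Aqp4, known from astrocytes and skeletal muscle fibers, had 9 and 4 copies, or 1.504 and 0.684 TPM, with a fold change between 0.102 and 1.63. For both genes the counts do not settle the direction, and differences up to these bounds were not detectable at this depth. Aqp9, an aquaglyceroporin known from hepatocytes and leukocytes, had 0 copies in Dox+ and 9 in Dox−. With the 0 copies set to 3, and without counting error in the 9 copies, Aqp9 was 3.07-fold higher in Dox−, and its exact interval reached down to 2.02-fold. Aqp8 lies on chromosome 7, 130605808 to 130611517, and Aqp9 on chromosome 9, 70958466 to 71016489.

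**Figure D2:**
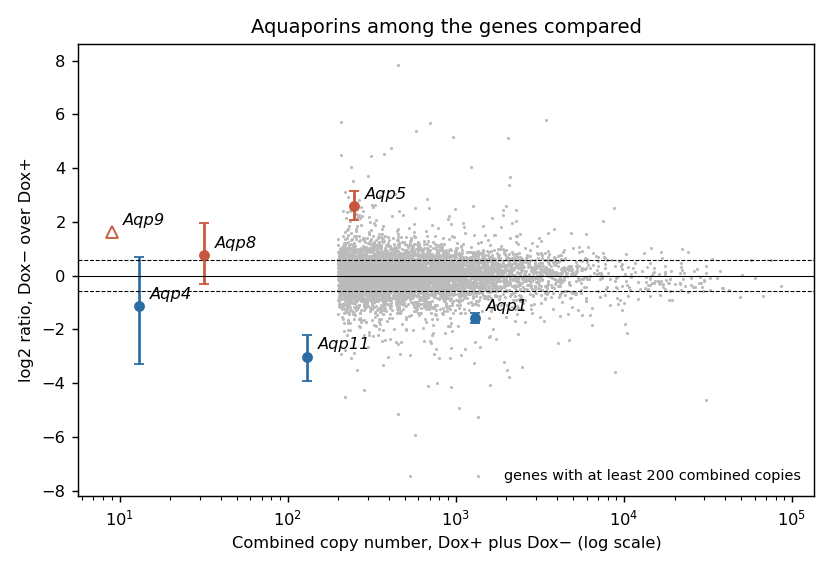
Log2 ratio of Dox− over Dox+ against the combined copy number (log scale) for the 6547 genes compared (grey) and the 6 aquaporins (red when higher, blue when lower in Dox−), with exact 95% intervals. Dashed lines mark the fold change of 1.5, genes at 0 in a library are drawn with 3 copies there, and the open triangle of Aqp9 is such a value. Aqp5 at 2.59 and Aqp1 at -1.57 lie outside the dense band of genes, and Aqp11 at -3.02 lies to the left of the 200 copies required.

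Added together, the 6 aquaporins had 1147 copies in Dox+ and 579 in Dox−, or 191.6 and 99.1 TPM, a decrease of 1.93-fold (1.75 to 2.14). The sums followed Aqp1, the most abundant member. Without Aqp1 the sum was 173 copies in Dox+ and 259 in Dox−, 1.53-fold higher in Dox− (1.26 to 1.87). That sum followed Aqp5, with 36 and 212 of these copies, while Aqp11 fell from 116 to 14, so that the remaining members did not rise together. The makeup of the aquaporin tags differed accordingly. Aqp1 held 84.9% of them in Dox+ (exact binomial interval 82.7 to 86.9) and 55.3% in Dox− (51.1 to 59.4). The share of Aqp5 was 3.14% in Dox+ (2.21 to 4.32) and 36.6% in Dox− (32.7 to 40.7), and that of Aqp11 was 10.1% (8.43 to 12.01) and 2.42% (1.33 to 4.02). Aqp9, with 0 of 1147 tags in Dox+, had a share of 0.262% there when its 0 was set to 3 copies, which is not an exact binomial limit.

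**Figure D3:**
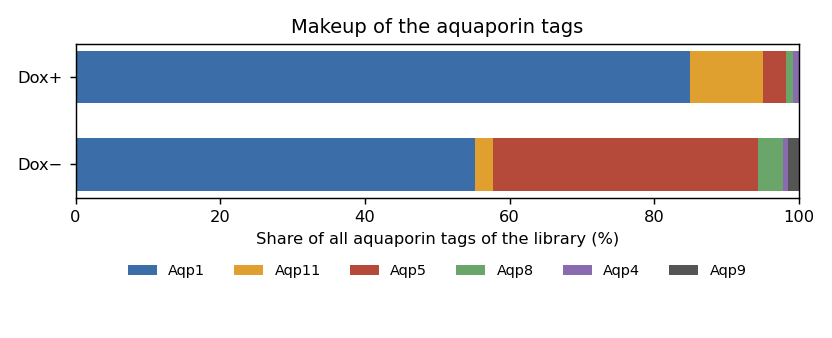
Share of each gene (%) in the aquaporin tags of each library, 1147 tags in Dox+ and 579 in Dox−, as stacked bars that add up to all tags of the 6 genes. Aqp1 takes 84.9% of the bar of Dox+ and 55.3% of that of Dox−, where Aqp5 takes 36.6%.

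Tag profiling counts tags by site rather than along the transcript, but the sample labels also mention fragmentation of the mRNA, so the order of the genes was read on both scales. In copies, the order in Dox+ was Aqp1, Aqp11, Aqp5, Aqp8, Aqp4 and Aqp9, and in Dox− it was Aqp1, Aqp5, Aqp8, Aqp11, Aqp9 and Aqp4. Per kilobase of the longest annotated transcript, the level of Aqp1 in Dox+ was 61.9 TPM per kilobase, above Aqp11 with 14.7, Aqp5 with 3.88 and Aqp8 with 1.35. The intervals of Aqp1, Aqp11, Aqp5 and Aqp8 on this scale did not overlap in Dox+. In Dox− the level of Aqp5 was 23.4 TPM per kilobase (20.3 to 26.8) and that of Aqp1 was 20.8 (18.6 to 23.3), so that these neighbours overlapped and the leading gene depended on the scale. Aqp8 with 2.30 (1.41 to 3.56) and Aqp11 with 1.81 (0.991 to 3.04) overlapped as well, both far below Aqp1 and Aqp5.

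The 250 bases before the start of the 3 aquaporins with the most tags are shown as the regulatory sequence next to these genes, since Aqp1 and Aqp11 were lower and Aqp5 was higher in Dox−. They were read 5′ to 3′ on the strand of the gene from NCBIM37, before the RefSeq or the GENCODE start, whichever lay farther upstream. Capitals mark every match, on either strand, to the GC box (GGGCGG), a hexamer bound by nuclear receptors (AGGTCA), a hexamer bound by the progesterone receptor (TGTTCT), the TATA box (TATAAA) or the core bound by hypoxia-inducible factors (ACGTG). The stretches lie at chr6:55286043-55286292 (plus strand), chr7:104886758-104887007 (minus strand) and chr15:99421030-99421279 (plus strand).
Aqp1: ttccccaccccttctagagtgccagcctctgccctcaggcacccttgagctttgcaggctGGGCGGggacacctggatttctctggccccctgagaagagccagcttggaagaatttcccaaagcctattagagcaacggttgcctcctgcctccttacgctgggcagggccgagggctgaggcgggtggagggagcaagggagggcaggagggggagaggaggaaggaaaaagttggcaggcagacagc
Aqp11: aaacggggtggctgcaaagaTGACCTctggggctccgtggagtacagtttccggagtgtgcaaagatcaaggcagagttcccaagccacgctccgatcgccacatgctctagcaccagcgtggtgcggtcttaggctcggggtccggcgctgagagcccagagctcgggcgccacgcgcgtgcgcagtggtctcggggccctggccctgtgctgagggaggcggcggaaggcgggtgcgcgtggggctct
Aqp5: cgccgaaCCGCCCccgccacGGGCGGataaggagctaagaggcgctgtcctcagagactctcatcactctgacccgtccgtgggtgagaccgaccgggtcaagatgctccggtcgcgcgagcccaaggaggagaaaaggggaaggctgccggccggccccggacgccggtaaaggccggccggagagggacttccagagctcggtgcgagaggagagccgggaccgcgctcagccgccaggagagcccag

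The GC box stood in the stretches of Aqp1 and Aqp5, in the latter on both strands, and 32.7% of 32851 windows of the same length before RefSeq starts hold it. The nuclear receptor hexamer stood in Aqp11, where the printed strand reads TGACCT, against 14.0% of the windows. The progesterone receptor hexamer, the TATA box and the hypoxia core had no match in the 3 stretches, and they occur in 16.1%, 12.4% and 16.6% of the windows. The GC content was 62% for Aqp1, 67.2% for Aqp11 and 69.6% for Aqp5, and the median of the windows was 52.4%. The match of such short words is a description of the letters and not of a bound site.

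No other annotated gene of NCBIM37 overlapped any of the 6 aquaporins. Within 100 kb of their starts, 8 protein-coding neighbours had a row in the table, 5 of them with at least 200 combined copies. Of these 5, 2 were called higher and 0 lower, where 15.2% of all genes compared were called higher and 29.9% either way. Whether neighbours and aquaporins changed together was not tested. Racgap1, a regulator of cytokinesis 60.8 kb from Aqp5, had 108 copies in Dox+ and 286 in Dox−. Aldh1a2, a retinoic acid synthesizing enzyme 47.1 kb from Aqp9, had 620 and 1674 copies. Clns1a, a chloride channel regulator 41.6 kb from Aqp11, was level with 399 and 407 copies, and Pak1, 50.3 kb on the other side, had 110 and 84.

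Water follows salt, and the genes that move ions across epithelia were taken as the first list around the aquaporins. Of 27 listed genes of epithelial salt and fluid transport, 24 had a row and 13 had at least 200 combined copies, of which 5 were called lower, 0 higher, and 8 were not called. Their median log2 ratio was -0.17, and that of all genes compared was 0.03. Of all genes compared, 14.7% were called lower and 15.2% higher. Fxyd4, a regulator of the sodium pump, had 1501 copies in Dox+ and 87 in Dox−, 16.8-fold lower (13.6 to 21.2). Sgk1, the kinase that keeps the epithelial sodium channel at the membrane, had 1198 and 187 copies, 6.25-fold lower (5.36 to 7.34). Ano1, a calcium-activated chloride channel, went from 597 to 108 copies and Atp1b1, a beta subunit of the sodium pump, from 706 to 158. Nedd4l, the ubiquitin ligase that removes the sodium channel, had 221 and 140 copies. The count of called genes rested on the minimum of 200, since 10 were called at a minimum of 100, in both directions. At that minimum 15.4% of 8856 genes were called lower. Listed genes below 200, chosen after their values were seen, were the sodium channel subunits Scnn1a with 149 and 18 copies and Scnn1b with 57 and 10, and the chloride channel Cftr with 17 and 131. Scnn1a and Cftr reached 100 only through the library where they were high, so that their calls there depend on the difference itself. Scnn1b stayed below 100. Cftr was 7.89-fold higher in Dox− (4.75 to 14.0), Scnn1a 8.08-fold lower (4.94 to 14.0).

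The 16 listed genes of osmotic response and cell volume included 15 with a row and 7 with enough copies. Of these, 1 was called higher, 1 lower and 5 neither, with a median log2 ratio of 0.02. Over all genes compared 29.9% were called, so that these calls do not set the list apart. Slc38a2, an amino acid transporter induced by hypertonicity, rose from 452 to 1106 copies, and Slc6a6, the taurine transporter, fell from 576 to 338. Nfat5, the transcription factor of the hypertonic response, had 241 and 209 copies, and Wnk1, a kinase that senses chloride, 494 and 488. Trpv4, an osmosensitive calcium channel named after its value was seen, had 16 copies in Dox+ and 38 in Dox−.

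Aqp9, like Aqp3 and Aqp7, carries glycerol, and 17 of 18 listed genes of glycerol release, uptake and use had a row. Of the 8 with enough copies 2 were called lower, 0 higher and 6 neither, at a median of -0.32. The share called over all genes compared was 29.9%, with 14.7% lower and 15.2% higher. G0s2, an inhibitor of triglyceride lipase, fell from 210 to 62 copies, and Mgll, which frees glycerol from monoacylglycerol, from 257 to 117. Dgat2, which esterifies diacylglycerol, had 1021 and 751 copies and Pnpla2, the triglyceride lipase, 341 and 299, neither of them called. The genes that carry or anchor aquaporins at the membrane were nearer to level. Of 26 listed genes 25 had a row and 17 enough copies, of which 2 were called higher, 0 lower and 15 neither, with a median of 0.12. Ezr, an actin linker that binds aquaporins, rose from 297 to 542 copies and Vamp3, a vesicle SNARE, from 97 to 171. Nedd4, a ubiquitin ligase, had 3824 and 3427 copies and Stx4a, a plasma membrane SNARE, 761 and 808. The table's own GO term for water transmembrane transporter activity held 6 genes, 5 aquaporins and Pdpn, a mucin-type membrane glycoprotein with 114 and 55 copies. Its term for fluid transport, like the former added after the values were seen, held 25 genes, of which 10 had enough copies. Of these, 1 was called higher (Aqp5) and 2 lower (Ednrb and Adcy7). Beside the share of 29.9% over all genes, these calls do not set the term apart.

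**Figure D4:**
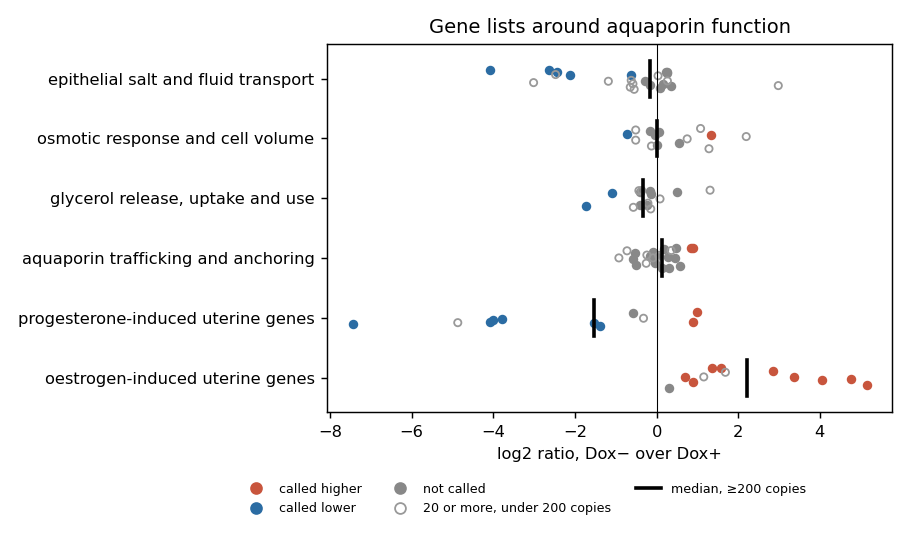
Log2 ratio of Dox− over Dox+ for each gene of 6 lists, with genes called higher in red, called lower in blue, not called in grey, and genes with at least 20 but fewer than 200 combined copies as open circles without a call. Black bars are medians over genes with at least 200 copies, Lrp2 at -7.44 is drawn with 3 copies in Dox−, and open-circle genes at 0 in a library are left out. Salt transport has 5 genes called lower and 0 higher, the oestrogen list 9 higher and 0 lower.

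Ovarian steroids are known to set the level of several aquaporins in the mouse uterus, so genes known to respond to them were read beside Aqp1, Aqp5 and Aqp11. These lists hold genes that the study itself names for their change in these libraries, and they are no independent evidence of a direction. Each list also counts the gene of its receptor, Pgr or Esr1, which is not taken as induced by that hormone. Among all genes compared, 14.7% were called lower and 15.2% higher. Of the 14 genes of the progesterone list, Pgr included, 9 had enough copies. Of these 6 were called lower, 2 higher and 1 was not called, at a median log2 ratio of -1.52. Ihh, the epithelial hedgehog ligand, had 646 copies in Dox+ and 37 in Dox−, Fst (follistatin) 725 and 44, Hdc (histidine decarboxylase) 1928 and 137, and Hoxa10 3120 and 1060. Lrp2 (megalin), with 534 and 0 copies, was 173.8-fold lower in Dox− with the 0 copies set to 3, and its exact interval reached down to 140.8-fold. The progesterone receptor gene itself, Pgr, was one of the 2 called higher, with 687 and 1251 copies, and Alox15, a lipoxygenase, was the other, with 233 and 453. Of the 14 genes of the oestrogen list, Esr1 included, 12 had a row and 10 enough copies. Of these 9 were called higher, 0 lower and 1 was not called, at a median of 2.22. Lcn2 (lipocalin) rose from 27 to 935 copies, Padi1 from 15 to 395, Gjb2 (connexin 26) from 72 to 1158, Ramp3 from 188 to 1893 and Oxtr (oxytocin receptor) from 84 to 593. Ltf (lactoferrin), with the most tags of this list, had 905 copies in Dox+ and 2639 in Dox−. Aqp5 moved in the direction of the oestrogen list, and Aqp1 and Aqp11 in that of the progesterone list. Whether the steroid state of the pooled mice had a part in the aquaporin levels was not tested.

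Markers of the cell types that carry aquaporins also differed. Calls among them, here and below, stand beside 14.7% called lower and 15.2% called higher over all genes compared. For Aqp1, the 9 endothelial markers with a row, of 10 listed, had summed levels of 237.6 (Dox+) and 159.6 TPM (Dox−), a log2 ratio of -0.57, and 3 of the 4 with enough copies were called lower. Cdh5 (VE-cadherin) had 446 and 216 copies and Tie1 191 and 100, while Pecam1 was level with 243 and 253. None of the 9 was at 0. The log2 ratio of Aqp1 was -1.57, and those of the 4 endothelial markers compared ranged from -1.01 to 0.09. Those below 200 copies, named after their values were seen, ranged from -1.26 for Esam (93 and 38 copies) to 0.80 for Kdr (10 and 17). Esam was 2.39-fold lower (1.62 to 3.58), an interval that overlaps the 2.62 to 3.38 of Aqp1. Smooth muscle markers numbered 10, with summed levels of 8194 and 5483 TPM and a log2 ratio of -0.58. Of these, 6 were called lower and 0 higher, with Tagln at 11417 and 8854 copies, Mylk at 9121 and 5256 and Actg2 at 7436 and 5086. Of 10 red blood cell markers 5 had a row, none of them with 200 combined copies, and their summed levels were 11.03 and 35.9 TPM. Hba-a1 (alpha globin) had 26 copies in Dox+ and 114 in Dox−, Hba-a2 19 and 82, Alas2 21 and 9, and Hbb-b2 and Spna1 were at 0 in Dox+. The part of endothelial, muscle or blood content in the level of Aqp1 was not tested.

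For Aqp5 and Aqp8, the 10 epithelial markers had summed levels of 1133 (Dox+) and 1463 TPM (Dox−), a log2 ratio of 0.37 against 2.59 for Aqp5. They did not move together, with 4 called higher, 2 lower and 4 neither. Krt19 had 1554 and 2046 copies and Krt8 1330 and 1481, while Cldn3 fell from 1482 to 494. For Aqp9, the 10 leukocyte markers summed to 82.5 and 137.2 TPM, a log2 ratio of 0.73. Csf1r was level with 186 and 181 copies, Lyz2 had 127 and 169 and Ptprc (CD45) 49 and 130. Neither of the 2 leukocyte markers with enough copies was called. S100a8 and S100a9, neutrophil proteins named after their values were seen, had 24 and 98, and 9 and 71 copies. Ncr1, also named after its value was seen, went the other way with 37 and 18. None of the epithelial or leukocyte markers was at 0.

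For Aqp4, the 7 skeletal muscle markers with a row, of 10 listed, summed to 655.9 and 235.4 TPM, most of it Acta1 with 3385 and 1241 copies, followed by Tnni2 with 408 and 99 and Tnnt3 with 50 and 12. The others, named after their values were seen, had few copies: Ckm 33 and 13, Actn3 24 and 8, Tnnc2 21 and 0, Mylpf 5 and 3. Myh1, Myh4 and Pvalb had no row, so that the sum rests on Acta1 and Tnni2 and does not measure skeletal muscle fibers. Both skeletal muscle markers with enough copies were called lower. The 9 adipocyte markers with a row, of 10 listed, summed to 302 and 222.6 TPM, with Cfd (adipsin) at 1081 and 875 copies, Fabp4 at 224 and 163 and Adipoq (adiponectin) at 157 and 78, and 1 of the 3 with enough copies was called lower. None of them was at 0. The part of these contents in the levels of Aqp4, Aqp5, Aqp8 and Aqp9 was not tested.

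**Figure D5:**
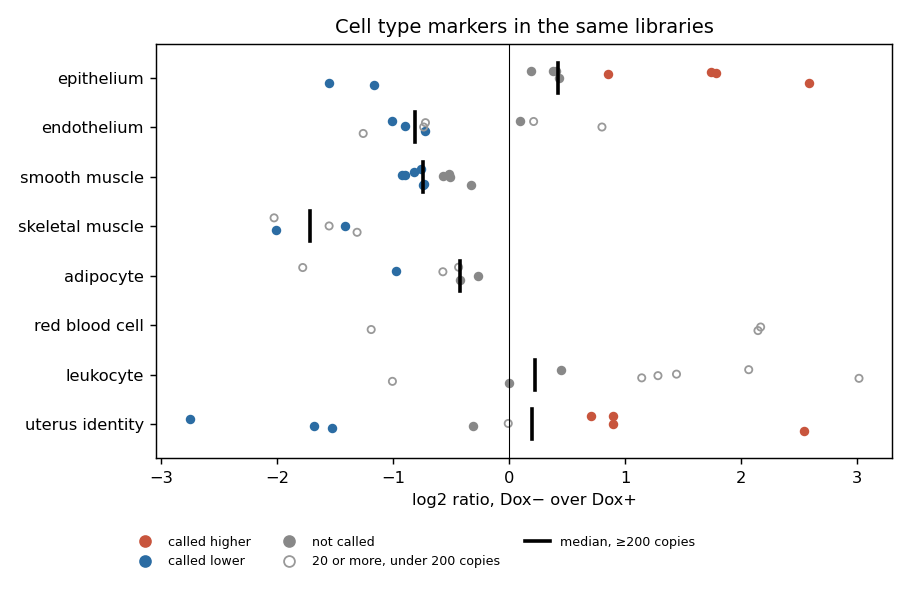
Log2 ratio of Dox− over Dox+ for the marker genes of 7 cell types and of the uterus, with called genes in color, genes not called in grey, genes with at least 20 but fewer than 200 combined copies as open circles, and medians over genes with at least 200 copies as black bars. Endothelial and smooth muscle markers lie mostly below 0, with sums at -0.57 and -0.58, epithelial markers lie on both sides, and the red blood cell list has no gene with 200 copies.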

How the data were processed

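The deposited table holds, for 1 Dox+ and 1 Dox− library, tag counts per gene (copy numbers) without normalization, as the authors counted them after removing adaptor-only, low quality and once-seen tags and aligning the rest, sense and antisense, to mouse reference transcripts of mm9. The deposited TPM values are copies per 1000000 clean tags, with 0.01 at 0 copies. The submitters' processing notes name CASAVA. The aligner and the restriction enzyme are not given in the sources used here. The authors' ratios, P-values and FDR columns were not used.

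Library totals were recovered from copies and TPM. Fold changes were taken from the counts without a pseudocount, with 95% intervals from the exact (Clopper-Pearson) limits on the share of each gene's tags found in Dox−. A count of 0 was set to 3. The two-sided Audic-Claverie test was run on every gene with Benjamini-Hochberg adjustment over the table, and was tested on simulated data. All aquaporins were named. Of each pathway or hormone list the text names at most 5 called genes with the largest log2 ratio and the 2 genes with the most copies, and of each marker list the 3 with the most copies; genes named otherwise are identified as such or stand for a list's best-known member (Nfat5, Pgr). 1 gene that this rule names is not reported here. The members and lists were chosen with earlier results of these data known. Positions and transcript lengths come from the GENCODE annotation of NCBIM37. Promoter windows come from RefSeq (GRCm38.p6), where 5 of the 6 aquaporins had an entry. Only the 3 aquaporins shown were located on NCBIM37, by exact match. Python 3.11.15, scipy 1.17.1, R 4.3.3 and edgeR 4.0.16 were used.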

Additional observations from a re-analysis of the deposited data

How the results depend on the processing

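With 1 library per condition no replicate could be left out, and no paired analysis was possible because each condition has 1 library. Of 12 alternatives only the scalings and the pseudocount can change a log2 ratio, and the lower filters cannot take a call away. The log2 ratio ranged from -1.61 to -1.53 for Aqp1 and from 2.56 to 2.63 for Aqp5. Both kept their call in all but 1 alternative, the edgeR exact test with an assumed coefficient of variation (CV) between pools of 0.4 (adjusted p = 1 and 0.336, against 0.00851 and 2.13e-05 at a CV of 0.2). Aqp11 ranged from -3.05 to -2.93 and was called in the 3 settings with a lower filter, and its adjusted p was 1.01e-05 at a CV of 0.2 and 0.186 at 0.4. Aqp9 was called without a filter. Aqp4 and Aqp8 were called in none, with log2 ratios from -1.17 to -0.97 and from 0.73 to 0.81. How much pools of one condition vary was not measured, and the intervals hold counting error alone.

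The number of aquaporins called was 2, and it was 4 without a filter and 0 at a CV of 0.4. The genes called higher and lower, 994 and 961, were 1925 and 1887 at a minimum of 20 combined copies, 2044 and 2077 without a filter, 302 and 368 at a fold change of 2, 147 and 174 at a CV of 0.2 and 16 and 17 at a CV of 0.4. For salt transport, 10, 11 and 12 genes were called at minimums of 100, 20 and none, and 1 at a CV of 0.4. For osmotic response the count was 5 at a minimum of 20 and 5 without a filter, 1 at a fold change of 2, and 1 and 0 at CVs of 0.2 and 0.4. Glycerol genes gave 1 and 0 at these CVs. Trafficking genes gave 0 at a fold change of 2 and 0 at either CV. The progesterone and oestrogen lists gave 4 and 4 at a CV of 0.4. The other 89 of 117 counts stayed within 1.5 times the reported count. The lower counts at a fold change of 2 and the higher counts at lower minimums follow from the settings themselves. The scalings moved the median log2 ratio of all genes compared to between 0 and 0.07, from 0.03.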
